A study of Homo sapiens with 6 samples.

Results

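The osteoblast lineage genes comprised RUNX2, SP7, DLX5, MSX2, MN1, ALPL, SPP1, SPARC and IBSP, taken by symbol from a list of genes that mark or build the bone-forming cell, to which MN1 was added. The list was drawn up with earlier results of these data known. All 9 genes were found among the 21447 genes to which the deposited transcripts could be matched, and 6 of them held enough counts to be tested among 14323 genes. RNA was sequenced in bulk from U-2 OS, a human osteosarcoma cell line, in 3 untreated libraries and in 3 libraries prepared 24 h after 4 Gy of ionizing radiation (IR). The cells were unsynchronized, all libraries came from the same line with no genetic change between the groups, and the culture medium was the same. The study calls the samples of a group independent, and neither it nor the labels say whether they came from separate cultures, so that p-values measure the spread between these libraries, which may be technical. Poly(A) RNA is given in the labels, together with a kit for mRNA, but the methods of the study name a kit for total RNA.

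Osteoblasts arise from mesenchymal progenitors under RUNX2, a transcription factor that binds DNA through its runt domain together with the partner CBFB, and under SP7 (osterix), which acts after RUNX2. DLX5 and MSX2 are homeobox factors that respond to BMP signals in the developing skeleton and skull, and MN1 is a transcriptional coactivator, first found at a translocation breakpoint in meningioma, that works with retinoid and vitamin D receptors and is needed for bones of the skull. The mature cell makes ALPL, the tissue-nonspecific alkaline phosphatase that removes pyrophosphate, an inhibitor of mineral growth, and secretes the matrix proteins SPP1 (osteopontin), SPARC (osteonectin) and IBSP (bone sialoprotein). Osteosarcoma is a tumour that forms osteoid, and its cell lines keep this programme to different degrees.

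After IR, MN1 fell to 0.555 of its untreated level and ALPL rose 2.13-fold, both called in all 14 alternative settings. RUNX2 fell to 0.778, a call that held in 9 of the 14, and MSX2, SPP1 and SPARC did not pass the test. SP7, DLX5 and IBSP were at or near 0 counts in both groups. Among all tested genes, 30.1% passed the test in either direction, 15.5% as higher and 14.5% as lower after IR, beside which 3 of 6 tested members passed, 1 as higher and 2 as lower. The median log2 fold change was 0.02 over the 6 tested members and 0.01 over all tested genes. The levels of MN1, RUNX2 and ALPL did not overlap between the groups, which held for 47.1% of all tested genes. In bulk RNA, fewer cells that express a gene and less of its RNA per cell cannot be told apart.

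**Figure D1:**
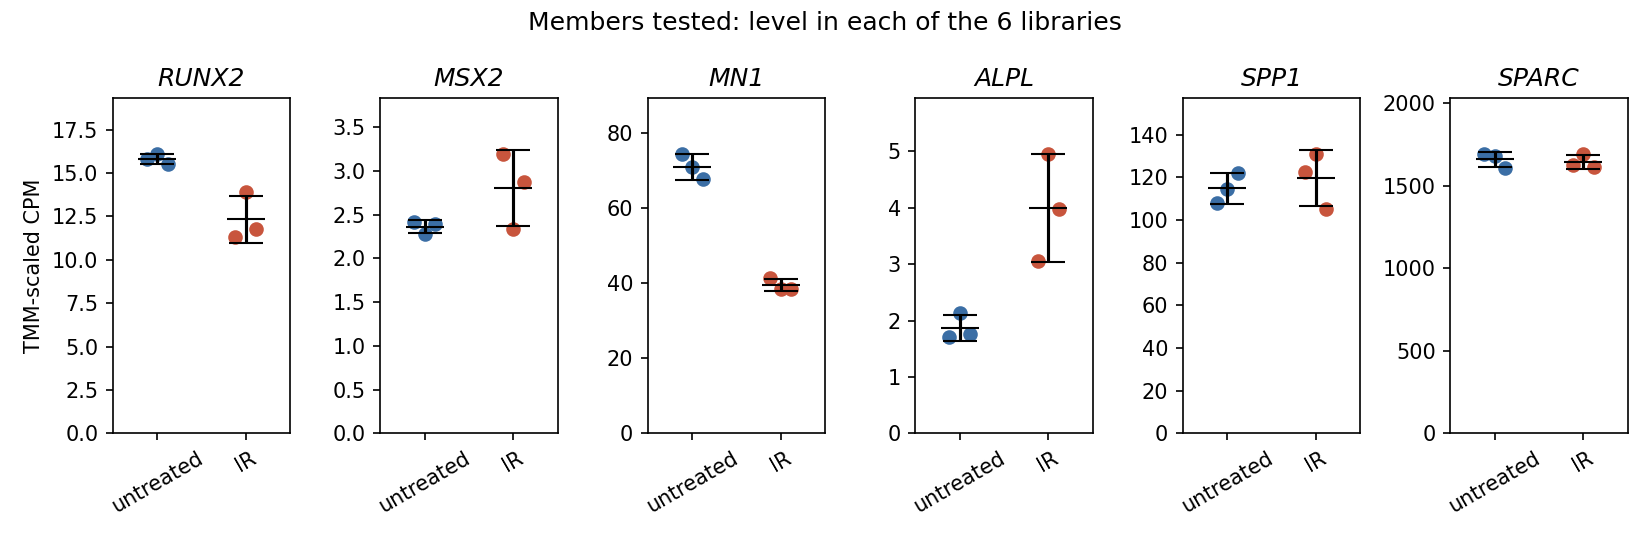
Level of the 6 tested members in each library, as CPM, which are counts divided by the TMM-scaled library size (y axis, from 0, a separate scale for each gene), with untreated libraries in blue and IR libraries in red. Horizontal marks give the mean and the error bars the SD of 3 libraries. MN1 lay between 67.6 and 74.4 in untreated libraries and between 38.4 and 41.2 after IR, and SPARC overlapped fully.

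The libraries held 18573309 to 22953834 estimated counts, except IR replicate 3 with 45308792. IR replicate 3 also stood apart from the other IR libraries, with a chi-square per gene of 29.1 and 32.2 against them and 5.92 between those. A list of 8 well-known p53 targets, used as a check of the treatment, was higher after IR in 8 of 8 genes, with a median of 1.34 for their log2 fold changes. Of the 6 osteoblast markers set for checking the cell type, COL1A1, the main collagen chain of bone, held 53822 to 158463 counts per library, RUNX2 and ALPL were expressed, and SP7, IBSP and BGLAP (osteocalcin) were at 0 to 11 counts per library. The markers set for the cell type were thus present in part, with SP7, an early factor, at 0, and COL1A2, the partner chain of COL1A1, stood at 1.48 CPM untreated and 1.81 after IR. The library of IR replicate 3 also had a file name with a mark the others lack, and the values of MN1, RUNX2 and ALPL without it are given beside their results.

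RUNX2 is transcribed from a distal and a proximal start region, and its transcripts in the files began in both. The pair of protein-coding transcripts with the most counts of each region, RUNX2-202 (distal) and RUNX2-201 (proximal), differ in their first coding bases. These are printed as part of the bases by which reads can tell the regions apart. The untranslated bases before them, from 45328317 in RUNX2-202 and from 45422485 in RUNX2-201, also serve for this and are not printed. In the lines that follow, from the GENCODE release 44 transcripts, capitals mark coding bases that the other transcript lacks and lower case the start of the stretch they share.
RUNX2-202, chr6:45328727-45328784, GRCh38, plus strand: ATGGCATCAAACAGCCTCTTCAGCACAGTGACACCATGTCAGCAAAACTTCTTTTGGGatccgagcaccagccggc
RUNX2-201, chr6:45422577-45422592, GRCh38, plus strand: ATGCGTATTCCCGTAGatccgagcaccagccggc
Before the stretch they share, RUNX2-202 had 58 coding bases of its own in a coding length of 1497, and RUNX2-201 had 16 of 1521. By these lengths the 2 forms also differ further on, and those bases were not counted. Reads from the shared bases fit both regions, and their division between them is an estimate made by kallisto.

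Promoter windows of 300 bases, 250 before and 50 from the RefSeq start on (GRCh38.p14), were given for 6 of the 9 genes, with 9 windows in all. MN1, SP7 and DLX5 had no window. The windows were searched for the core letters recognized by RUNX factors, TGTGGT or ACCACA on the other strand, and for the GC box that SP factors recognize, GGGCGG or CCGCCC on the other strand, and the words found shared no position in the stretches printed. The bases before the first annotated exon of RUNX2 (distal), SPP1 and ALPL are shown because RUNX2 and ALPL passed the test, because RUNX2 and SPP1 alone held the RUNX word, and because ALPL is, like SPP1, a known target of RUNX2. Capitals mark either word.
RUNX2 distal, chr6:45328080-45328156, plus strand: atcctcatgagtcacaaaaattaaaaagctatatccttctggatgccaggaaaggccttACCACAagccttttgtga
SPP1, chr4:87975464-87975666, plus strand: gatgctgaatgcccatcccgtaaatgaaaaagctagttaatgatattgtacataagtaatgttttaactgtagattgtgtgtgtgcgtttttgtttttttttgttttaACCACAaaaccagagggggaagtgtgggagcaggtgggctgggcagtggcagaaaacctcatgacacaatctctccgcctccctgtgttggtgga
ALPL, chr1:21509173-21509396, plus strand: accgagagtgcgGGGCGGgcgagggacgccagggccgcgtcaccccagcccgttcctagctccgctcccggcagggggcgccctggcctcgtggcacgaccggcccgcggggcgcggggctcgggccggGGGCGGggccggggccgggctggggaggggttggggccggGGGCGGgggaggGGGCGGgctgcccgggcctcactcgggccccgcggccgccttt
The whole distal RUNX2 window held 4 RUNX words and that of SPP1 held 1, whereas 13.1% of 35116 windows of the same length over all genes held at least 1. The proximal RUNX2 window held no RUNX word and 1 GC box, and the ALPL window shown held 4 GC boxes, a word present in 45.0% of all windows. The RUNX2 windows differed in base composition, with 42.7% GC in the distal and 76.0% in the proximal window against a median of 58.7% over all windows, and the ALPL window had 82.3% GC, above 98.9% of them. A match is a description of these letters and was not tested as a site of binding.

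RUNX2 (chr6:45328157-45664349, GRCh38, plus strand) held 288, 361 and 317 estimated counts in the untreated libraries and 234, 255 and 532 after IR, in the order of replicates 1, 2 and 3. Scaled for depth, these were 15.8, 16.1 and 15.5 CPM (counts divided by the TMM-scaled library size) in untreated libraries and 11.3, 13.9 and 11.8 after IR. The untreated libraries lay close together, every IR library was lower, and the groups did not overlap. The mean went from 15.8 ± 0.304 CPM (SD, n = 3) to 12.3 ± 1.36 (SD, n = 3), or -0.36 on the log2 scale with a standard error of 0.10, a 95% confidence interval from -0.59 to -0.13 and an adjusted p of 0.0250 by edgeR's quasi-likelihood test with Benjamini-Hochberg adjustment. The call was near its threshold. It was lost when untreated replicate 1, 2 or 3 or IR replicate 1 was left out, with edgeR adjusted p-values of 0.0728, 0.0790, 0.0521 and 0.0541, and kept without IR replicate 3, with 0.0419. With the effective length of each gene in each library as an offset, the log2 fold change was -0.10 and the edgeR adjusted p was 0.692. The deposited TPM of RUNX2, a level per length, overlapped between the groups at 4.51 ± 0.400 untreated and 4.07 ± 0.657 after IR (SD, n = 3 each).

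By the region in which its transcripts start, those of the distal region of RUNX2 summed to 7.91, 5.70 and 10.1 CPM in untreated libraries and 7.40, 11.6 and 7.31 after IR, so that the groups overlapped (exact two-sided permutation test, p = 0.7). Those of the proximal region summed to 7.84, 10.4 and 5.42 CPM untreated and to 3.93, 2.31 and 4.45 after IR, with every IR library below every untreated one (exact two-sided permutation test, p = 0.1, the smallest that 3 libraries against 3 allow). The distal share of RUNX2 counts was 50.2% ± 14.8 untreated and 70.3% ± 11.5 after IR (SD, n = 3 each), ranges that overlapped (exact two-sided permutation test, p = 0.2). This split by region was made after the values were seen. In the test of transcript usage, in which 2.68% of 10664 genes passed, RUNX2 had an adjusted p of 1 (edgeR diffSpliceDGE with Simes p-values). Among single transcripts, the distal RUNX2-209, which is 2256 bases long, held 11.4% to 20.8% of the gene's counts in untreated libraries and 34.7% to 39.9% after IR. The proximal RUNX2-211, annotated as a target of nonsense-mediated decay, held 13.65% to 30.85% untreated and 0% to 13.61% after IR. These ranges nearly met. The shares of RUNX2-202 overlapped between the groups, with 21.85% to 51.72% untreated and 20.99% to 48.12% after IR. Those of RUNX2-201 also overlapped, with 17.17% to 40.42% untreated and 0% to 34.84% after IR. RUNX2-201 had 0 estimated counts in IR replicate 2, and RUNX2-211 had 0 in IR replicate 3. RUNX2 overlaps SUPT3H on the minus strand, which held 2 to 5 counts per library.

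**Figure D2:**
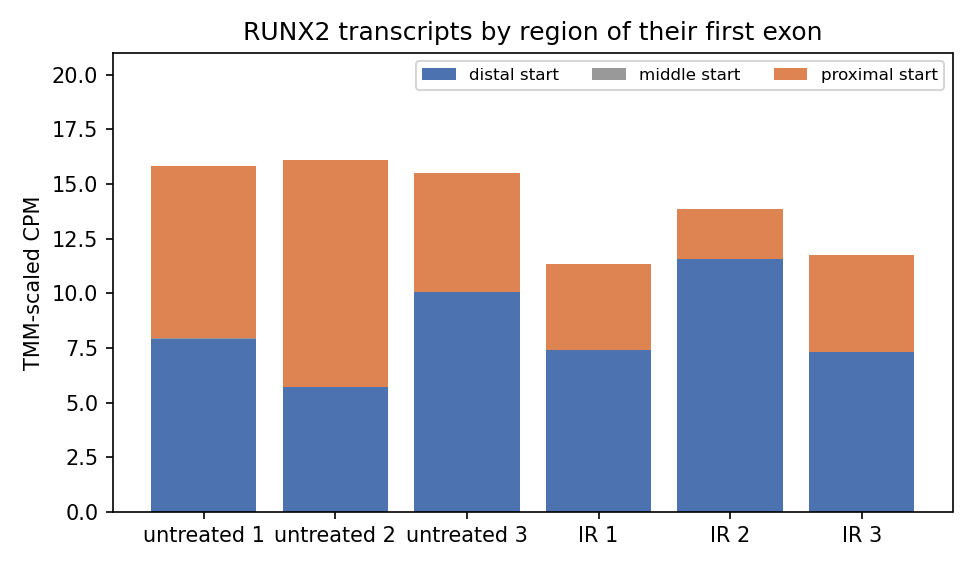
RUNX2 level in each library (TMM-scaled CPM, bars from 0), divided by the region in which the transcript starts. The distal part ranged from 5.70 to 10.1 in untreated libraries and from 7.31 to 11.6 after IR, and the proximal part from 5.42 to 10.4 and from 2.31 to 4.45. The middle region held at most 1 count in a library and is not visible at this scale.

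SP7 had 0 counts in all 6 libraries, which allows a level of up to 0.0664 to 0.165 CPM per library if 3 counts are taken as the limit that a count of 0 allows. DLX5 had 1 count in IR replicate 1 and 0 in the other libraries. No fold change is given for either factor, since both groups were under that limit, which covers counting error only. MSX2 (chr5:174724582-174730896, plus strand) held 44, 51 and 49 counts in untreated libraries and 66, 43 and 130 after IR, or 2.42, 2.27 and 2.39 CPM and 3.19, 2.34 and 2.88 CPM. IR replicate 2 lay within the untreated range, so that the groups overlapped. The log2 fold change was 0.25 with a 95% confidence interval from -0.19 to 0.71 and an adjusted p of 0.363 by edgeR's quasi-likelihood test.

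Of the other transcription factors and partners of the osteoblast, 12 of 18 were tested, 2 were higher and 0 lower, with a median log2 fold change of 0.02. SNAI2, a zinc-finger repressor of epithelial genes that promotes the mesenchymal state, rose from 22.3 to 31.3 CPM (log2 fold change 0.48, edgeR adjusted p = 0.0193) and was called in 10 of 14 alternative settings. The other called gene, TWIST2, a bHLH factor that restrains RUNX2, fell outside the naming rule with a mean of 32 counts and was named after its value was seen (log2 fold change 0.93, edgeR adjusted p = 0.0329), with a call in only 4 of the 14 alternatives. CBFB, the DNA-binding partner of RUNX2, had a log2 fold change of -0.15 (edgeR adjusted p = 0.113). It was called lower in 1 of the 14 alternatives, the effective length offset, with -0.52 (edgeR adjusted p = 0.0160). The TPM of CBFB went from 59.0 ± 3.17 untreated to 39.8 ± 1.28 after IR (SD, n = 3 each). The related factors RUNX1 and RUNX3 had log2 fold changes of 0.01 and 0.09, with edgeR adjusted p-values of 0.952 and 0.736.

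MN1 (chr22:27748277-27801756, minus strand, 2 exons) had the lowest p-value of the 6 tested members. It held 1355, 1589 and 1384 estimated counts untreated and 852, 708 and 1736 after IR, the last from the library of the greatest depth. Scaled for depth, these were 74.4, 70.9 and 67.6 CPM untreated and 41.2, 38.5 and 38.4 CPM after IR. The 3 IR libraries lay close together and below every untreated library. The mean was 71.0 ± 3.39 CPM untreated and 39.4 ± 1.59 CPM after IR (SD, n = 3 each). This log2 fold change of -0.85 had a standard error of 0.07, a 95% confidence interval of the ratio from 0.499 to 0.618 and an adjusted p of 1.58e-04 by edgeR's quasi-likelihood test. By p-value it stood at rank 1 of the 2080 genes called lower, and by fold change at rank 125. MN1 was put on the list with earlier results of these data known, so its rank may not be independent of that choice. Between 93.2% and 99.1% of its counts in a library were assigned to MN1-201, the transcript that codes for the protein. MN1 was called in all 14 alternative settings, with log2 fold changes from -0.99 to -0.81, and without IR replicate 3 it had -0.84. With the effective length offset its standard error was 0.23 and its edgeR adjusted p was 0.0416, near the threshold.

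Fold changes in these libraries rose with GC content, from a median log2 value of -0.13 among genes near the 41.8% GC of SPP1 to 0.23 among those near the 59.7% of ALPL, and MN1 moved against that trend. The transcripts of MN1 had 56.7% GC, and the 940 tested genes within 1 percentage point of it had a median log2 fold change of 0.14, with 5.11% of them lower and 22.9% higher. With the GC trend of each library removed, MN1 had a log2 fold change of -0.99 (edgeR adjusted p = 4.62e-05). PITPNB, which starts 118 kb from the start of MN1, was the only protein-coding gene of the files to start within 500 kb of it. It had a log2 fold change of -0.17 (edgeR adjusted p = 0.126). Over the 6 libraries the profiles nearest to that of MN1, by Euclidean distance of centred log2 CPM, were E2F8, a repressor of the E2F family, WDR76, a WD-repeat protein, and ZNF281, a zinc-finger factor. They lay at distances of 0.0841, 0.148 and 0.150 and had log2 fold changes of -0.87, -0.74 and -0.85.

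MN1 works with nuclear receptors and their coactivators, and the list of these genes had 6 lower and 1 higher of 14 tested, beside 14.5% lower and 15.5% higher among all tested genes, with a median log2 fold change of -0.15. Of the genes within 1 percentage point of GC content of these 6, between 8.40% (CREBBP) and 25.1% (NCOA3) were called lower. All 6 genes that fell encode coactivators. NCOA2, a p160 coactivator, fell from 70.9 to 42.8 CPM (log2 fold change -0.73, edgeR adjusted p = 6.45e-04), and EP300, an acetyltransferase that joins these complexes, fell from 146 to 97.5 CPM (log2 fold change -0.58, edgeR adjusted p = 0.00164). MED1, a Mediator subunit that binds nuclear receptors, had a log2 fold change of -0.58, NCOA3 of -0.50, CREBBP of -0.46 and NCOA1 of -0.41. VDR, the vitamin D receptor, stood at -0.06, RXRA at -0.03 and RARA at 0.00 on the log2 scale, with edgeR adjusted p-values of 0.571, 0.826 and 0.977. With the GC trend removed, 8 genes of the list were lower, RXRA and RARA among them. These 2 receptors were each called in 2 of the 14 alternatives, with log2 fold changes down to -0.31 and -0.28. The receptor RARB, with a mean of 26 counts, was called higher (log2 fold change 0.96, edgeR adjusted p = 0.0479), and in 5 of the 14 alternatives. Each of the 6 coactivators was called lower in all 14 alternative settings, and the list had a median between -0.30 and -0.10 under them. CYP24A1, the vitamin D target that degrades the hormone, had a log2 fold change of -0.25 (edgeR adjusted p = 0.176).

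**Figure D3:**
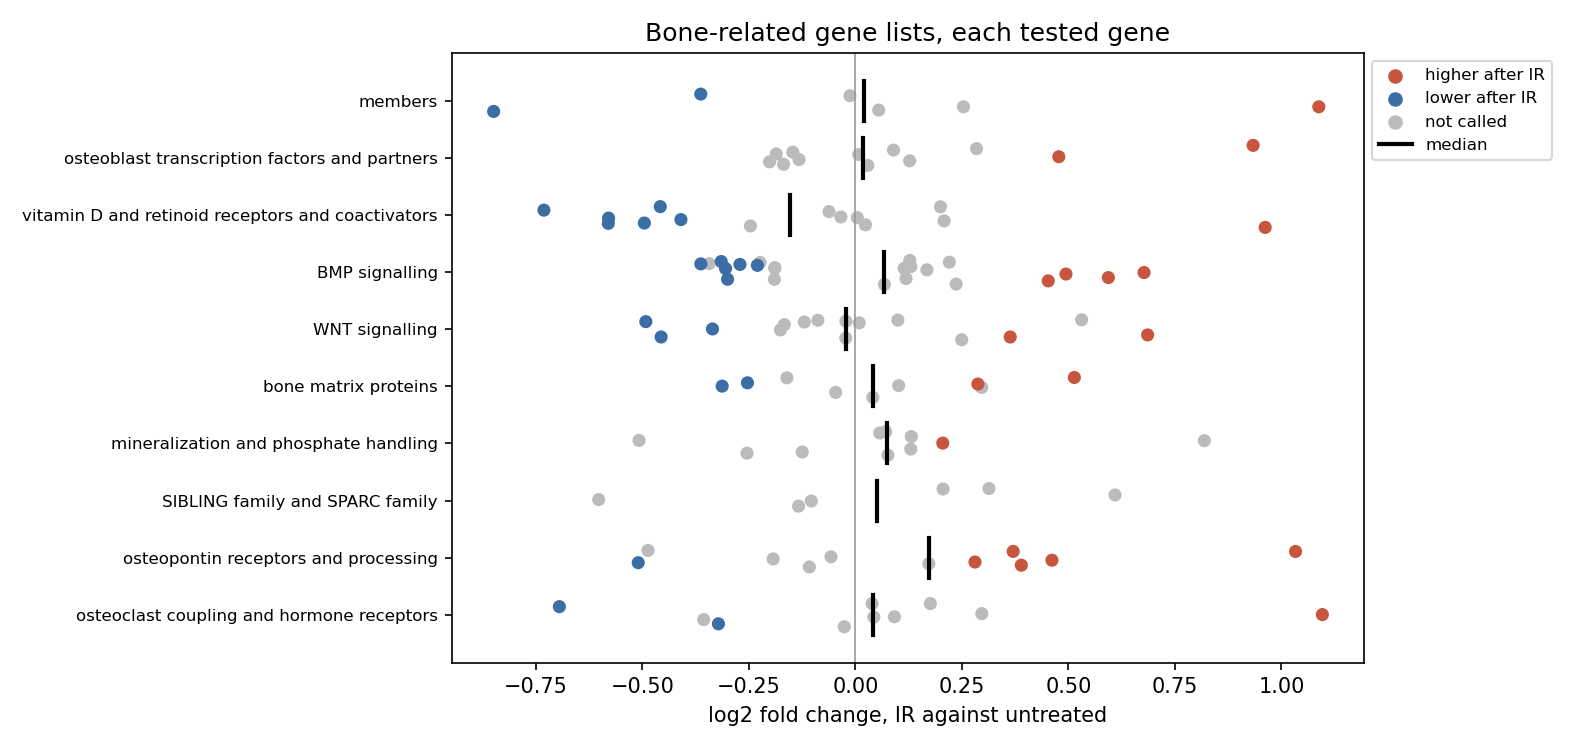
Log2 fold change (x axis, IR against untreated) of each tested gene of the members and of 9 related lists (rows). Red points passed edgeR's test as higher and blue points as lower, grey points did not pass, and black bars are medians, which lay between -0.15 for the list of receptors and coactivators and 0.17 for that of osteopontin receptors and processing. Vertical scatter within a row has no meaning.

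ALPL (chr1:21509397-21578410, plus strand) was expressed at a low level and rose. It held 31, 48 and 36 estimated counts in untreated libraries and 63, 91 and 180 in IR libraries, or 1.70, 2.14 and 1.76 CPM and 3.05, 4.95 and 3.99 CPM. The IR libraries spread more widely than the untreated ones and all of them were higher. The log2 fold change was 1.09 with a standard error of 0.23, a 95% confidence interval from 0.58 to 1.60 and an adjusted p of 0.00716 by edgeR's quasi-likelihood test, at rank 130 by fold change and 739 by p-value among the 2227 genes called higher. At least 73.3% of its counts in every library were assigned to ALPL-206, which starts at position 21509426, within the GC-rich window whose upstream bases are printed above. The gene overlaps, on the same strand, ENSG00000289715, which release 44 lists and which was not quantified here, so that shared reads could not be told apart. ALPL was called in all 14 alternative settings, with log2 fold changes from 0.86 to 1.23, and without IR replicate 3 it had 1.08.

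ALPL moved in the same direction as genes of its base composition. Its transcripts had 59.7% GC, and the 889 tested genes within 1 percentage point had a median log2 fold change of 0.23, with 33.4% of them higher and 1.91% lower. With the GC trend removed, ALPL had a log2 fold change of 0.86 and an edgeR adjusted p of 0.0198. The part of base composition in the remaining change was not tested. Among the genes that start within 500 kb, ECE1, the endothelin-converting enzyme, was called higher (log2 fold change 0.23, edgeR adjusted p = 0.0282), and the other 5 tested genes did not pass. The nearest profiles over the 6 libraries were those of LPAR2, a lysophosphatidic acid receptor, ADGRE1, an adhesion receptor, and ISYNA1, the inositol phosphate synthase, at distances of 0.296, 0.306 and 0.323.

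Of the genes that handle phosphate and mineral, 10 of 13 were tested, and 1 was higher and 0 lower, with a median log2 fold change of 0.07. ANXA6, an annexin of matrix vesicles, rose from 149 to 171 CPM (log2 fold change 0.21, edgeR adjusted p = 0.0395), with a call in 5 of the 14 alternatives. PHOSPHO1, the phosphatase that acts with ALPL inside matrix vesicles, had a log2 fold change of 0.82 on a mean of 18 counts (edgeR adjusted p = 0.213). ENPP1, which makes pyrophosphate, and ANKH, which exports it, had log2 fold changes of -0.25 and -0.12 with edgeR adjusted p-values of 0.0587 and 0.187. The placental phosphatase ALPP, a paralogue of ALPL, had a log2 fold change of 0.13 (edgeR adjusted p = 0.494), and ALPG and ALPI had 0 counts in every library.

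The matrix genes SPARC and SPP1 did not pass the test. SPARC (chr5:151661096-151686975, minus strand) held 1694, 1679 and 1609 CPM in untreated libraries and 1628, 1694 and 1615 after IR. The groups overlapped almost completely. The log2 fold change of -0.01 had a 95% confidence interval from -0.14 to 0.12 (edgeR adjusted p = 0.891). By the deposited TPM, SPARC stood above 99.7% of genes at 1954 ± 102 untreated and 1883 ± 97.7 after IR (SD, n = 3 each). Of its counts, 62.9% ± 0.870 in untreated libraries and 65.8% ± 2.47 after IR (SD, n = 3 each) were assigned to SPARC-202, annotated as a retained intron, and 12.2% ± 0.520 and 11.4% ± 0.910 to SPARC-201, the longest coding transcript.

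SPP1 (chr4:87975667-87983532, plus strand) held 108, 114 and 122 CPM in untreated libraries and 123, 131 and 105 after IR. The highest and the lowest of the 6 libraries were both IR libraries. The log2 fold change of 0.05 had a 95% confidence interval from -0.14 to 0.25 (edgeR adjusted p = 0.669), and its sign turned with the effective length offset (-0.04) and without IR replicate 2 (-0.02). Its main coding transcripts differ by whole in-frame stretches of coding exons, shown here as the bases of the full-length form SPP1-203 that each shorter form lacks (GENCODE release 44, GRCh38, plus strand).
SPP1-201 lacks 42 bases, chr4:87980393-87980434: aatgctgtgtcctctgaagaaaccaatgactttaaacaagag
SPP1-202 lacks 81 bases, chr4:87980046-87980126: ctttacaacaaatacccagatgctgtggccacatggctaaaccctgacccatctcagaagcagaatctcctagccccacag
The full-length SPP1-203 held 70.6% ± 2.56 of SPP1 counts in untreated libraries and 65.6% ± 3.27 after IR, SPP1-201 held 21.4% ± 1.60 and 20.96% ± 2.09, and SPP1-202 held 2.77% ± 1.84 and 5.36% ± 2.22 (SD, n = 3 each). SPP1-211, which has the same coding bases as SPP1-203, held 1.59% ± 0.790 and 4.88% ± 1.62. The transcripts of full coding length together held 69.9%, 70.8% and 75.9% in untreated libraries and 72.2%, 71.2% and 68.2% after IR, so that the groups overlapped. The usage test gave SPP1 an adjusted p of 1, or 0.201 where transcripts needed at least 10 counts in every library (edgeR diffSpliceDGE).

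IBSP (chr4:87799554-87812435, plus strand) held 1, 2 and 0 counts in untreated libraries and 0, 3 and 1 after IR. These lie at or under the limit of 3 counts, and no fold change is given. Its RefSeq window held neither a RUNX word nor a GC box. The relatives of these matrix proteins in the SIBLING and SPARC families had 6 of 10 genes tested, of which edgeR called 0, with 2 at an unadjusted p under 0.05, and DESeq2 called 0. With the effective length offset, and without IR replicate 3, 1 was called lower. FSTL1, the most abundant of them, had a log2 fold change of -0.13 (edgeR adjusted p = 0.108), and SPOCK2 had the lowest adjusted p of the list, at 0.0861 (edgeR, log2 fold change 0.61).

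**Figure D4:**
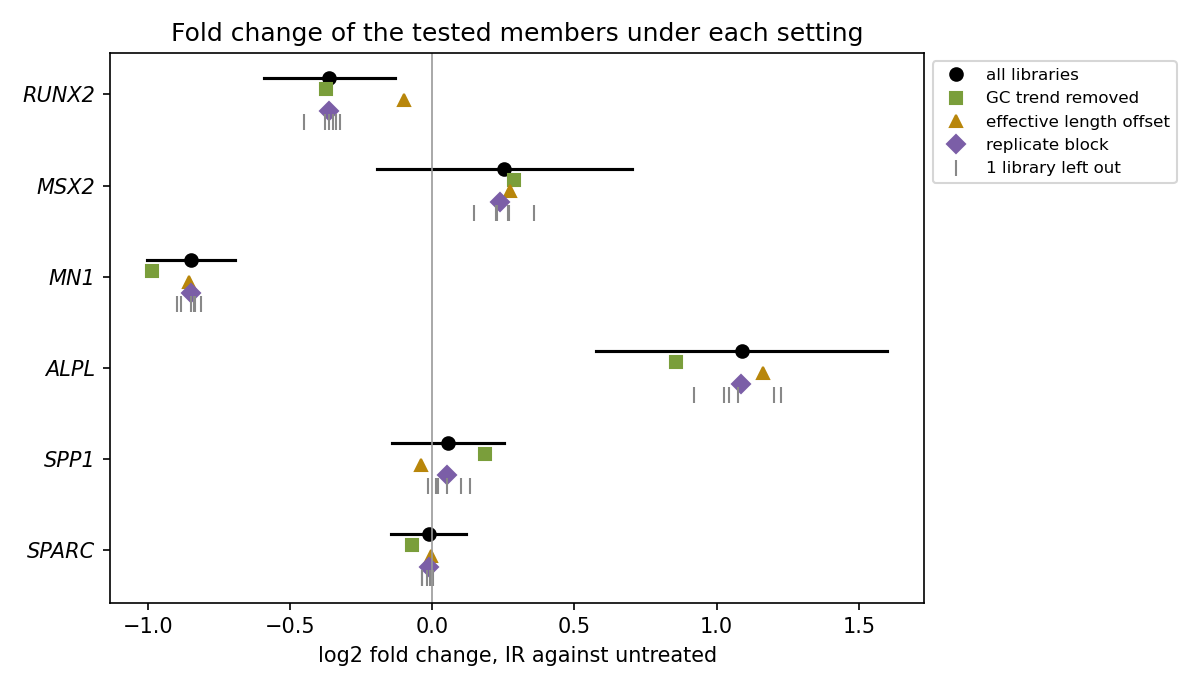
Log2 fold change (x axis, IR against untreated) of the 6 tested members. Black points and lines are the fit on all libraries with its 95% confidence interval, the other symbols are fits with the GC trend removed, with the effective length offset and with the replicate number as a block, and grey ticks are fits with 1 library left out. MN1 stayed between -0.99 and -0.81 and ALPL between 0.86 and 1.23, while RUNX2 moved to -0.10 with the length offset.

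Ordered by TPM, the level per length, the untreated means ran from SPARC (1954) and SPP1 (173) through MN1 (14.2), RUNX2 (4.51) and MSX2 (1.44) to ALPL (0.826), IBSP (0.0588), DLX5 and SP7. The ranges of neighbours from SPARC to IBSP did not overlap in untreated libraries. After IR the means were 1883 for SPARC, 161 for SPP1, 7.56 for MN1, 4.07 for RUNX2, 1.79 for ALPL and 1.69 for MSX2. The last pair overlapped, with 1.28 to 2.14 TPM for ALPL and 1.27 to 1.95 for MSX2, so that their order after IR was not resolved.

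Beside 15.5% of all tested genes called higher and 14.5% lower, the BMP list had 4 of 23 tested genes higher and 6 lower, with a median log2 fold change of 0.07 that turned to -0.08 with the GC trend removed or the length offset. ID1, a direct BMP target that blocks bHLH factors, rose from 59.9 to 95.6 CPM (log2 fold change 0.68, edgeR adjusted p = 0.00528), and the ligand BMP7 rose from 5.09 to 7.63 CPM (log2 fold change 0.59, edgeR adjusted p = 0.0245), a call kept in 8 of the 14 alternatives. The signal transducer SMAD5 and the common partner SMAD4 fell, with log2 fold changes of -0.36 and -0.31 and edgeR adjusted p-values of 0.00584 and 0.0117. In the WNT list, 2 of 15 were higher and 3 lower, close to the shares of all tested genes, with a median of -0.02. The ligand WNT5B had a log2 fold change of 0.69 and the co-receptor LRP5 of 0.36, whereas the related co-receptor LRP6 had -0.49 and the WNT inhibitor SFRP1 -0.46, with edgeR adjusted p-values of 0.00177, 0.0124, 0.00234 and 0.00514. They were called in 14, 12, 14 and 13 of the 14 alternatives. LRP5 had log2 fold changes down to 0.06 under them and lost its call with the GC trend removed.

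Among other bone matrix genes, 2 of 9 tested were higher and 2 lower, and the median stood at 0.04 on the log2 scale. The proteoglycan LUM and the procollagen enhancer PCOLCE rose by 0.51 and 0.29 on the log2 scale, and the matrix protein TNC and the crosslinking enzyme LOX fell, with values of -0.31 and -0.25 (edgeR adjusted p-values of 0.00274, 0.0185, 0.0153 and 0.0168). They were called in 13, 9, 11 and 10 of the 14 alternatives, and PCOLCE turned to -0.02 with the GC trend removed. COL1A1 had a log2 fold change of 0.10 (edgeR adjusted p = 0.399). Under the alternatives it ranged from -0.20 to 0.16, with a call as lower in 1 of the 14. With the GC trend removed, the bone matrix list had 1 gene higher and 3 lower. The receptors and proteases of osteopontin had 5 higher and 1 lower of 11 tested, with a median of 0.17. Among all tested genes 15.5% were higher and 14.5% lower. Under the 14 alternatives the list had 3 to 6 genes higher and 1 to 2 lower. MMP3, a protease that cleaves SPP1, rose from 59.0 to 121 CPM (log2 fold change 1.03, edgeR adjusted p = 2.42e-04), and the integrin chain ITGB5 rose by 0.46 while its partner ITGAV fell by 0.51 on the log2 scale (edgeR adjusted p-values of 0.00244 and 6.84e-04). CD44, MMP14 and ITGA5 were the other genes called higher, in 13, 13 and 11 of the 14 alternatives.

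Genes by which osteoblasts act on osteoclasts or receive hormones had 1 higher and 2 lower of 10 tested, with a median of 0.04. CSF1, the growth factor of the macrophage and osteoclast lineage, rose from 6.77 to 14.5 CPM (log2 fold change 1.10, edgeR adjusted p = 5.21e-04), and the growth factor receptors PDGFRA and FGFR2 fell, with log2 fold changes of -0.69 and -0.32 (edgeR adjusted p-values of 0.00141 and 0.0304), the latter called in 10 of the 14 alternatives. TNFRSF11B, the decoy receptor osteoprotegerin, had a log2 fold change of -0.03 (edgeR adjusted p = 0.900), and TNFSF11, its ligand, was at or near 0.

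Markers of other lineages differed in level and direction, and SOX9, a chondrocyte factor, stood at 112 CPM untreated and 75.2 after IR. Of 9 chondrocyte markers, 5 were tested and 3 were lower, namely SOX9, SOX5 and ACAN with log2 fold changes of -0.58, -0.70 and -0.52, the last called in 8 of the 14 alternatives, and the summed level of the list went from 150 to 166 CPM in untreated libraries to 105 to 125 after IR. COL2A1, the defining cartilage collagen, had 0.285 CPM untreated and 0.220 after IR. Of 7 adipocyte markers, 3 were tested, PPARG rose and LPL fell (log2 fold changes 0.43 and -0.86), and the sum was 34.5 to 37.1 CPM untreated and 37.0 to 39.5 after IR. Of 5 myoblast markers only PAX7 was tested, called by neither edgeR nor DESeq2 (edgeR unadjusted p = 0.220), with sums of 10.8 to 12.1 and 11.98 to 13.3 CPM, and 0 counts of MYOD1 and MYF5. Of 7 osteoclast markers, 2 were tested and MMP9 was higher (log2 fold change 0.80, called in 12 of the 14 alternatives and lost with the GC trend removed), with sums of 9.39 to 15.002 and 14.9 to 19.9 CPM. Of 6 osteocyte markers, 3 were tested, of which edgeR called 0, also 0 at an unadjusted p under 0.05, and DESeq2 0, with sums of 23.4 to 24.4 and 24.1 to 26.3 CPM. Of 5 markers of blood and endothelium, 2 were tested and CD68 was higher (log2 fold change 0.67, called in 10 of the 14 alternatives and lost with the GC trend removed or the length offset), with sums of 8.55 to 11.4 and 12.7 to 17.8 CPM and 0 counts of HBB. PTPRC, the other tested marker, went the other way and was not called. Its log2 fold changes ran from -1.02 to -0.64 under the alternatives, with a call in 1 of the 14. The part of these markers in the changes of MN1, RUNX2 and ALPL was not tested.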

How the data were processed

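The data are bulk RNA-seq libraries, 6 in all, of U-2 OS cells. The authors trimmed reads with fastp and quantified them by kallisto (version not given in the sources used here) against GENCODE release 37, and deposited an estimated count and a TPM per transcript and library. By transcript identifier, GENCODE release 44 gave symbols and coordinates (158711 of 161171, the rest holding at most 1.80% of a library's counts). Estimated counts were summed per gene, rounded, filtered by filterByExpr, scaled by TMM and tested by edgeR 4.0.16 (glmQLFit, glmQLFTest, R 4.3.3) with Benjamini-Hochberg adjustment at 0.05. CPM use TMM-scaled library sizes. Transcript usage was tested by diffSpliceDGE. Scripts were tested on simulated data. Libraries of a group differed beyond counting noise (chi-square per gene 3.45 to 32.2). The members and gene lists were chosen with earlier results of these data known. Beside the members, the text names up to 2 called genes at either end of each list (mean count 100 or more), marker genes by their counts, the 3 nearest profiles and neighbours of called members, and other genes for their role, which were chosen after their values were seen. Alternatives were other filters, DESeq2 1.42.0, a replicate block, GC trend removal, an effective length offset and leaving out each library. A GC correction with the block was added after seeing the data.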

Additional observations from a re-analysis of the deposited data

How the results depend on the processing

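MN1 and ALPL were called in the same direction in all 14 alternatives. With the effective length offset, 837 genes were higher and 875 lower, RUNX2 lost its call at -0.10 and SPP1 turned to -0.0385 on the log2 scale. The cause was not tested. Leaving out 1 library gave 1295 to 2114 genes higher and 1244 to 2284 lower, 228 to 444 genes in the usage test, 2 to 3 members called, and log2 fold changes of -0.45 to -0.33 for RUNX2, -0.016 to 0.13 for SPP1, which turned without IR replicate 2, and -0.035 to 0.0016 for SPARC, which turned without untreated replicate 1. The GC trend removed with the replicate block gave 1474 genes higher. The usage test called 65 genes with at least 10 counts in every library and 149 with the replicate block. The replicate numbers did not pair the libraries (correlations of deviations of -0.0175, 0.0072 and -0.0519, with no library closest to its own number). The replicate block gave 1727 genes higher and 1624 lower and changed no member's call. Counts of 0 to 3 limit SP7, DLX5 and IBSP to levels, and ALPL rests on 31 to 180 counts per library.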
